A study of Saccharomyces cerevisiae BY4741 with 40 samples.

Results

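The 10 genes described here carry glucose into the budding yeast cell and phosphorylate it. The 7 hexose transporter genes *HXT1*, *HXT2*, *HXT3*, *HXT4*, *HXT5*, *HXT6* and *HXT7* encode plasma membrane permeases, and the 3 kinase genes *HXK1*, *HXK2* and *GLK1* encode the enzymes that trap the imported sugar as hexose 6-phosphate. They were taken by name. Every transcription start site cluster (TSSC, a group of closely spaced RNA 5′-ends) that the tables annotate to one of them was kept, which gave 30 of 39519 TSSCs over 2 experiments. In the *RRP6* experiment these were 16 of 17812 TSSCs, with 12 at the 5′-ends of mRNAs (mRNA-TSSCs), 3 within or after the coding region in the sense direction (internal TSSCs) and 1 antisense. In the *SET2* experiment they were 14 of 21707, with 11 mRNA-TSSCs, 2 internal TSSCs and 1 antisense TSSC. All 10 genes had an mRNA-TSSC in both experiments.

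The *RRP6* experiment compared *upf1∆*, *rrp6∆* and *upf1∆rrp6∆* cells with wild-type (WT), and the *SET2* experiment compared *upf1∆*, *set2∆* and *upf1∆set2∆* cells with WT, with 3 libraries per genotype. All strains, WT included, were BY4741 derivatives that lack *CAN1*. They were grown in rich glucose medium, and the deletions were marked with drug resistance or *HIS3* cassettes. Upf1 is the helicase required for nonsense-mediated mRNA decay (NMD), Rrp6 a catalytic subunit of the nuclear exosome, and Set2 the enzyme that methylates histone H3 over transcribed genes. The *upf1∆* libraries of both experiments and those of *upf1∆set2∆* each came from 1 strain reference, whereas each other genotype had 2, so the deletion and any other difference carried by that 1 *upf1∆* strain cannot be told apart.

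The sequenced 5′-ends were those of capped, polyadenylated RNAs, and each value is a whole number of normalized reads that the authors deposited as 1 number per genotype. As a molecule gives 1 end whatever its length, levels set side by side between genes need no correction for RNA length. Whether 5′-ends of different genes were recovered equally well was not checked. The spread between the 3 libraries is not in these values, so no test between genotypes was made from them. Instead, *upf1∆* and WT, which both experiments measured, gave a measure of repeat error. Over 12538 TSSCs found in both tables, the log2 ratio of *upf1∆* over WT differed between the experiments with an SD of 0.13 where the mean value was 1000 or more, 0.18 between 100 and 1000, 0.32 between 10 and 100, and 0.67 below 10. A ratio is called apart here when it exceeds 2-fold in either direction after 1 is added to both values. The values of a genotype summed to between 3914205 and 4985459 over all TSSCs. The *RRP6* mRNA-TSSCs held 2 and 7 reads in *rrp6∆* and *upf1∆rrp6∆*, against 86 in WT, and those of *SET2* held 6 and 13 in *set2∆* and *upf1∆set2∆*, against 40 in WT. The mRNA-TSSC of *UPF1*, listed as *NAM7*, showed no such loss. In the *RRP6* experiment it held 176 reads in *upf1∆* and 349 in *upf1∆rrp6∆*, against 220 in WT. In the *SET2* experiment it held 165 in *upf1∆* and 101 in *upf1∆set2∆*, against 111 in WT. These values therefore do not check the *UPF1* deletion, and why they did not fall was not tested.

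Yeast adjusts its glucose transporters to the sugar at hand. *HXT1* and *HXT3* encode low-affinity carriers used when glucose is plentiful, *HXT2*, *HXT4*, *HXT6* and *HXT7* carriers of higher affinity that are repressed at high glucose, and *HXT5* a carrier associated with slow growth. Much of this runs through the repressor Rgt1, which the membrane sensors Snf3 and Rgt2 inactivate through Mth1 and Std1, and through Mig1, which represses genes when glucose is high. *HXK2* encodes the main kinase during growth on glucose, with a role in glucose repression as well, whereas *HXK1* and *GLK1* are induced when glucose becomes scarce.

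The sequences around a few of these start sites carry the comparisons that follow. All come from the S288C R64 reference, in which the 10 coding regions had the coordinates of the tables, began with ATG and had a single exon. They are printed on the strand of the gene. *HXT1* (YHR094C, chrVIII:290913-292625, minus strand) had 2 mRNA-TSSCs in each experiment. In the *RRP6* experiment the proximal one (chrVIII:292637-292675) lay 50 to 12 nt upstream of the ATG and the distal one (chrVIII:292842-292909) 284 to 217 nt upstream of it. An RNA that starts anywhere in the distal cluster carries at least the 3 ATGs that lie between the cluster and the *HXT1* ATG, none of them in its frame, shown in capitals at chrVIII:292802-292831, chrVIII:292706-292735 and chrVIII:292674-292703.
HXT1 upstream ATG 196 nt before the ORF: ccattatctaATGtagcaaaatatttctta
HXT1 upstream ATG 100 nt before the ORF: aaaggcaacaATGtccccataatcaattcc
HXT1 upstream ATG 68 nt before the ORF: ctggggtctcATGttctttccccaccttaa
These open reading frames ran for 1, 3 and 16 codons before a stop codon, and all 3 ended upstream of the *HXT1* ATG. An RNA from the first position of the cluster carries 5 ATGs, 4 of them out of frame. The in-frame one, 258 nt before the ORF, opens 6 codons and also stops before the *HXT1* ATG.

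The next pair shows why *HXT6* and *HXT7* have to be read together. Their coding regions (*HXT6*, YDR343C, chrIV:1159608-1161320, and *HXT7*, YDR342C, chrIV:1154216-1155928, both on the minus strand) were equal at 1710 of 1713 positions, and so were the 84 nt directly before the 2 ATGs. The first 30 nt of the longest RNA of each gene (chrIV:1161378-1161407 and chrIV:1155993-1156022) are given with the positions inside the mRNA-TSSC in capitals.
HXT6 first 30 nt: AAACAAGAACAAACAAGCTCAacttgtctt
HXT7 first 30 nt: AATAAAACATCAAGAACAaacaagctcaac
A read of 38 nt that began at any of 18 of the 21 positions of the *HXT6* cluster matched *HXT7* exactly, as did one of 88 nt. From the *HXT7* cluster, reads from 8 of 18 positions matched *HXT6* in the *RRP6* experiment and those from 12 of 22 in the *SET2* experiment. None of the TSSC positions of the other 8 genes had a second exact match in the genome. How much of the value of each of these 2 genes came from the other cannot be told apart, and their sum is given beside each.

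The last sequence belongs to the one internal TSSC with an appreciable value. It lay inside *GLK1* (YCL040W, chrIII:50838-52340, plus strand) at chrIII:51343-51433 and was listed in the *RRP6* experiment alone. The first ATG after it, in capitals (chrIII:51446-51475), was 23 nt after the last position of the cluster and in frame with *GLK1*, which leaves 294 of its 500 codons. ATGs inside the cluster were not searched, so an RNA that starts earlier in it may meet another ATG first.
GLK1 first ATG after the internal TSSC: cgctcagggtATGcctatgatcaaggttgt

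**Figure D1:**
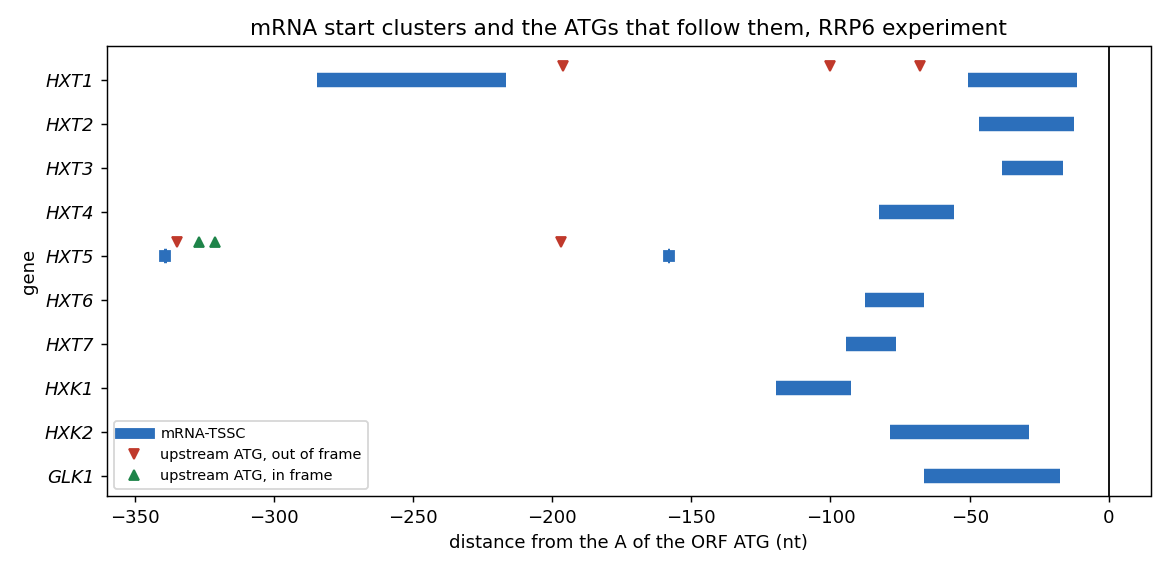
mRNA-TSSCs of the 10 genes in the *RRP6* experiment as blue bars or squares along the distance in nt from the A of the coding ATG, with the ATGs that follow every position of a TSSC as triangles. The distal *HXT1* cluster, 284 to 217 nt upstream, and the distal *HXT5* position, 339 nt upstream, are followed by ATGs, and the other 10 mRNA-TSSCs by none.

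Apart from the distal *HXT1* and distal *HXT5* starts, no leader held an upstream ATG. *HXT2* (YMR011W, chrXIII:288079-289704, plus strand) started 46 to 13 nt and *HXT3* (YDR345C, chrIV:1162957-1164660, minus strand) 38 to 17 nt before the ATG. *HXT4* (YHR092C, chrVIII:287081-288811, minus strand) started 82 to 56 nt before it in the *RRP6* experiment and 85 to 56 nt before it in the *SET2* experiment. *HXT6* started 87 to 67 nt before the ATG. *HXT7* started 94 to 77 nt before it in the *RRP6* experiment and 94 to 73 nt before it in the *SET2* experiment. Among the kinases, *HXK1* (YFR053C, chrVI:253592-255049, minus strand) had the longest leader with starts 119 to 93 nt upstream. *HXK2* (YGL253W, chrVII:23935-25395, plus strand) started over 78 to 29 nt and *GLK1* over 66 to 18 nt upstream. *HXT5* (YHR096C, chrVIII:294669-296447, minus strand) was seen at single positions 158 and 339 nt upstream in the *RRP6* experiment and only at the first of these in the *SET2* experiment. The leader from the distal position held 4 ATGs, 2 of them out of frame. An ATG after the whole cluster thus occurred in 2 of 12 member mRNA-TSSCs in the *RRP6* experiment, beside 12.2% of 5922 in the whole table, and in 1 of 11 in the *SET2* experiment, beside 12.5% of 5982.

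The kinase genes stood far above most transporter genes. In WT the mRNA-TSSC of *HXK1* held 12390 reads in the *RRP6* experiment and 10219 in the *SET2* experiment, which placed it 54th and 65th among 5231 and 5234 genes. *GLK1* followed with 9469 and 8440 reads in WT, and *HXK2* with 5188 and 4221. *HXK1* and *GLK1* thus had more 5′-end reads than *HXK2* in every genotype of both experiments.

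Of the transporters *HXT7* was the highest in WT with 3487 and 2856 reads in the 2 experiments, followed by *HXT2* with 2210 and 1773, *HXT6* with 1340 and 1088, and *HXT3* with 1139 and 889. *HXT4* held 443 and 380 reads in WT, and *HXT1*, both clusters summed, 211 and 115. *HXT5* was at the bottom with 3 and 2 reads. This order in WT was the same in both experiments. The WT values themselves repeated with an SD of 0.31 on the log2 scale for TSSCs of mean 1000 or more, after scaling by the median. By that measure *HXT6* and *HXT3*, 0.23 and 0.29 apart, did not differ beyond the repeat spread, while *HXK1* and *GLK1*, 0.39 and 0.28 apart, exceeded it in the *RRP6* experiment alone. The other neighbours down to *HXT5* were at least 0.56 apart in both. The order differed from that in WT in 5 of the 6 mutant sets, each time between neighbours in the WT order. *HXT6*, whose reads cannot be told apart from those of *HXT7*, was below *HXT3* in *rrp6∆* (825 and 1194 reads) and in *upf1∆rrp6∆* (1060 and 1404). *HXT7* was below *HXT2* in *rrp6∆* (2106 and 2489), and *HXT6* above *HXT2* in *set2∆* (1666 and 1416). *HXT7* was above *HXK2* in *upf1∆set2∆* (3924 and 3711), and *HXT1* above *HXT4* in *upf1∆* of the *RRP6* experiment (330 and 289). *HXT7* took 39.5% of the summed transporter value in WT of the *RRP6* experiment and 40.2% in WT of the *SET2* experiment, and *HXT6* and *HXT7* together held 4827 and 3944 reads. Of the 2 low-affinity carriers, *HXT1* took 2.39% and 1.62%, and *HXT3* took 12.9% and 12.5%.

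**Figure D2:**
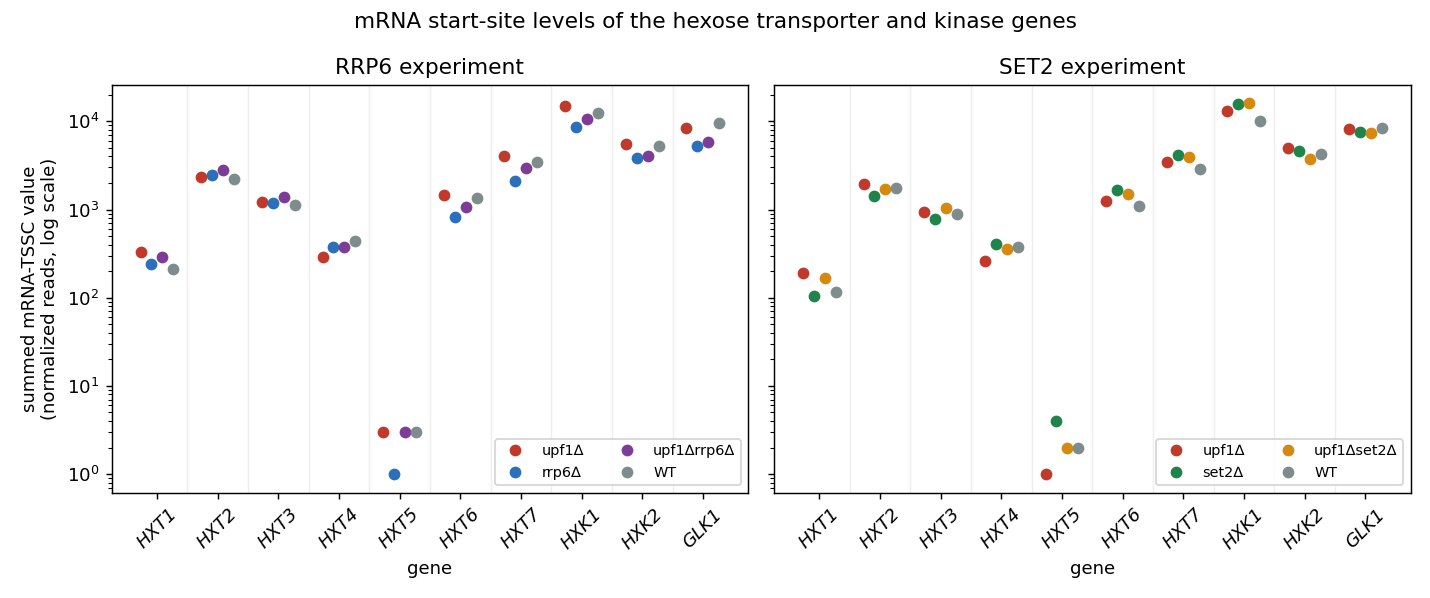
Summed mRNA-TSSC value of each gene (normalized reads, log axis) in the 2 experiments, 1 point per genotype, each the pooled value of 3 libraries. The 3 kinase genes lie between 3711 and 15958, *HXT1* and *HXT4* lie between 104 and 443, and *HXT5* lies between 1 and 4.

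The first question was whether loss of NMD changed the start-site levels of these genes. Of the 9 mRNA-TSSCs with a mean of at least 100, those of *HXT1* and *HXT4* differed by more than 1.4-fold between *upf1∆* and WT, in opposite directions and in both experiments, and the other 7 by less. The proximal *HXT1* cluster held 322 reads in *upf1∆*, against 210 in WT, in the *RRP6* experiment (log2 ratio 0.61), and 188 in *upf1∆*, against 115 in WT, in the *SET2* experiment (log2 ratio 0.70). The *HXT4* mRNA-TSSC held 289 reads in *upf1∆*, against 443 in WT, in the *RRP6* experiment (log2 ratio -0.61). There were 258 in *upf1∆*, against 380 in WT, in the *SET2* experiment (log2 ratio -0.56). Both effects were over 3 times the repeat SD of 0.18 at this level, and each recurred within it. The *upf1∆* libraries of both experiments came from 1 strain reference, so this SD leaves out differences between strains. The paper also describes a WT library from each experiment as prepared in parallel, so the experiments may not be fully separate repeats.

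The place of these 2 genes among all mRNA-TSSCs differed. Among the 3564 mRNA-TSSCs of the *RRP6* experiment with a mean of at least 100 in *upf1∆* and WT, 1.35% had a lower ratio than *HXT4*, and among the 3046 of the *SET2* experiment 1.51% had. For *HXT1*, 14.7% and 13.6% had a higher ratio. *HXT4* was thus below the 5th percentile of -0.42 and -0.38 in both experiments, whereas *HXT1* was inside the central range, whose 95th percentile was 1.40 and 1.43.

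The other 7 genes with a mean of at least 100 stayed within 0.35 on the log2 scale. *HXK1* held 14887 reads in *upf1∆*, against 12390 in WT, in the *RRP6* experiment and 13008 in *upf1∆*, against 10219 in WT, in the *SET2* experiment (log2 ratios 0.26 and 0.35). *HXT6* and *HXT7* summed to 5467 in *upf1∆*, against 4827 in WT, and to 4720 in *upf1∆*, against 3944 in WT (log2 ratios 0.18 and 0.26). *HXT2* had log2 ratios of 0.09 and 0.14 and *HXT3* of 0.10 and 0.08, which are no larger than about 1 SD of the repeat error of 0.13. The log2 ratios of *HXK2* were 0.09 and 0.24 and those of *GLK1* -0.17 and -0.036, the only ones among the 9 genes that differed between the experiments by more than 1 SD. All 9 lay within 2 SD.

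**Figure D3:**
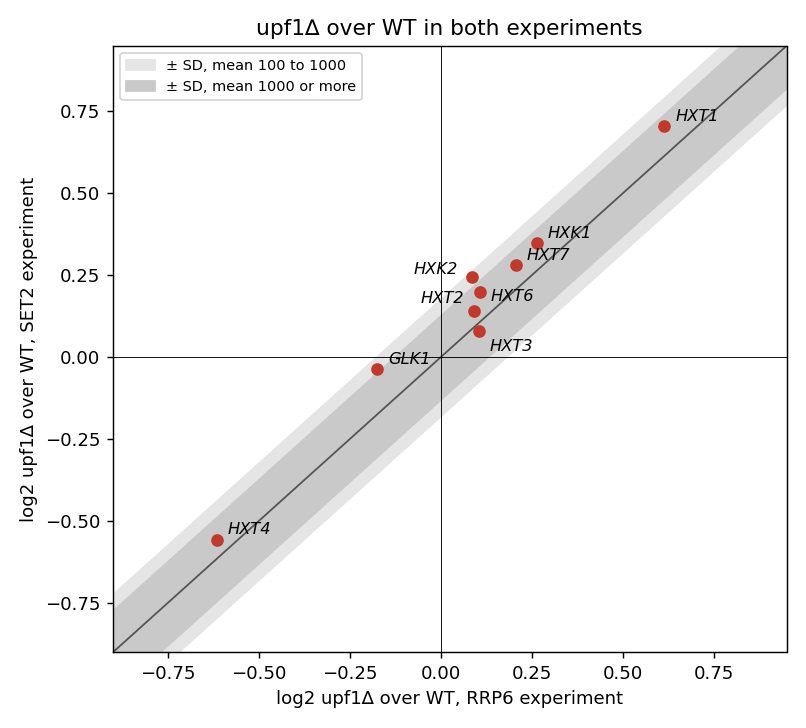
Log2 ratio of *upf1∆* over WT in the *RRP6* experiment (x) and the *SET2* experiment (y) for the 9 member mRNA-TSSCs with a mean of at least 100, 1 point per TSSC. The line marks equal ratios and the grey bands 1 SD of the difference over all matched TSSCs (0.18 for means of 100 to 1000, 0.13 for 1000 or more); *HXT4* is low and *HXT1* high in both.

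By the 2-fold limit, 1 of 12 member mRNA-TSSCs was apart between *upf1∆* and WT in the *RRP6* experiment, beside 14.1% of all mRNA-TSSCs, and 1 of 11 in the *SET2* experiment, beside 14.4%. Both were the distal *HXT1* cluster, which held 8 reads in *upf1∆*, against 1 in WT, and in the *SET2* experiment (chrVIII:292894-292903) 3 in *upf1∆*, against 0 in WT.

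Loss of Rrp6 was accompanied by lower values at 6 of the 9 genes with a mean of at least 100. The median log2 ratio of *rrp6∆* over WT was -0.45 for these 9, against 0.00 for the 3455 mRNA-TSSCs at that level. *GLK1* was lowest with 5240 reads in *rrp6∆*, against 9469 in WT (log2 ratio -0.85), a ratio that only 3.21% of mRNA-TSSCs lay below. *HXT7* held 2106 reads in *rrp6∆*, against 3487 in WT, and *HXT6* 825 in *rrp6∆*, against 1340 in WT. Their sum was 2931 in *rrp6∆*, against 4827 in WT (log2 ratio -0.72). *HXK1* held 8580 in *rrp6∆*, against 12390 in WT, and *HXK2* 3793 in *rrp6∆*, against 5188 in WT, log2 ratios of -0.53 and -0.45. All 3 kinase genes were therefore lower in *rrp6∆* than in WT, but 11.4% of mRNA-TSSCs lay below *HXK1* and 14.9% below *HXK2*. The repeat SD of 0.13 comes from *upf1∆* over WT and does not measure the error of *rrp6∆* over WT.

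*HXT2*, *HXT3* and proximal *HXT1* did not share this. *HXT2* held 2489 reads in *rrp6∆*, against 2210 in WT, and *HXT3* 1194 in *rrp6∆*, against 1139 in WT. Proximal *HXT1* held 217 in *rrp6∆*, against 210 in WT. *HXT4* was in between with 372 in *rrp6∆*, against 443 in WT (log2 ratio -0.25). As the genotype values carry no replicate spread and *rrp6∆* was measured in a single experiment, whether these differences exceed the spread between libraries was not tested.

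The double mutant *upf1∆rrp6∆* resembled neither single mutant throughout. *GLK1* stayed low with 5862 reads in *upf1∆rrp6∆*, against 9469 in WT (log2 ratio -0.69), and *HXK2* held 4074 in *upf1∆rrp6∆*, against 5188 in WT. *HXK1* held 10520 in *upf1∆rrp6∆*, against 12390 in WT (log2 ratio -0.24), and the sum of *HXT6* and *HXT7* was 4011 in *upf1∆rrp6∆*, against 4827 in WT (log2 ratio -0.27). *HXT2* and *HXT3* were above WT, with 2794 in *upf1∆rrp6∆*, against 2210 in WT, and 1404 in *upf1∆rrp6∆*, against 1139 in WT. The median log2 ratio of mRNA-TSSCs with a mean of at least 100 was itself 0.18 in this comparison, and relative to it these 2 genes were at 0.16 and 0.12. Relative to the median of all mRNA-TSSCs (0.28) they were at 0.06 and 0.023. When *upf1∆rrp6∆* was set against *rrp6∆*, the log2 ratio of all 9 was above 0. Of these, 6 were above the median of 0.13 over mRNA-TSSCs with a mean of at least 100, and 4 above the median of 0.17 over all mRNA-TSSCs. The comparisons with WT share their WT libraries, and this last one shares *rrp6∆* and *upf1∆rrp6∆* with them.

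The effects of *upf1∆* on *HXT1* and *HXT4* were not seen in the absence of Rrp6. Proximal *HXT1* held 225 reads in *upf1∆rrp6∆*, against 217 in *rrp6∆* (log2 ratio 0.05), and *HXT4* held 373 in *upf1∆rrp6∆*, against 372 in *rrp6∆* (log2 ratio 0.00). The difference from the *upf1∆* effect in cells with Rrp6 was itself not tested.

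The distal *HXT1* cluster followed another course than the proximal one. It held 8 reads in *upf1∆* and 27 in *rrp6∆*, with 67 in *upf1∆rrp6∆*, against 1 in WT. The double mutant thus had 2.48 times the *rrp6∆* value, and more than the 34 reads that the single effects add up to. The double-mutant value exceeded that sum also for *HXT2*, *HXT3*, *HXT4*, *HXT6*, *HXT7* and *GLK1*, and for the *HXT5* position 158 nt upstream with its 2 reads. It did not for proximal *HXT1*, with 225 reads beside a sum of 329, nor for *HXK1*, *HXK2* and the *HXT5* position 339 nt upstream. How often this happens among all mRNA-TSSCs was not counted, so it cannot be read as a trait of these genes. Within *upf1∆rrp6∆* the distal *HXT1* cluster stood beside 225 proximal reads, whereas in WT 1 distal read stood beside 210 proximal ones. The narrower distal cluster of the *SET2* experiment held 3 reads in *upf1∆*, 1 in *set2∆* and 5 in *upf1∆set2∆*, against 0 in WT, which is too few to order these genotypes.

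**Figure D4:**
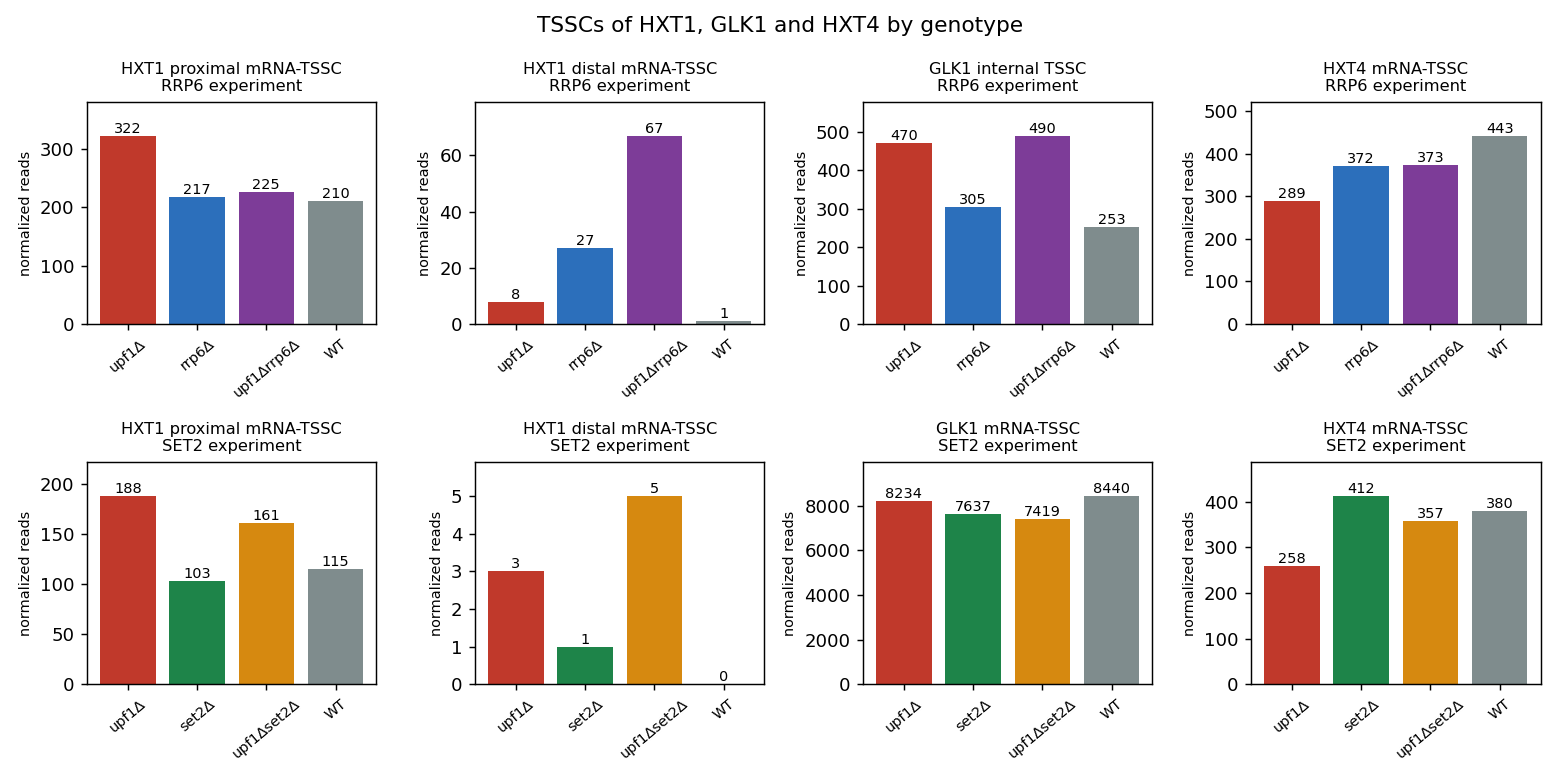
Normalized reads of the TSSCs of *HXT1*, *GLK1* and *HXT4* by genotype, 1 bar per pooled value with the number above it, *RRP6* experiment in the upper row and *SET2* experiment in the lower row; each panel has its own axis from 0. The distal *HXT1* cluster is highest in *upf1∆rrp6∆* at 67, against 1 in WT, and *HXT4* is lowest in *upf1∆* in both experiments.

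Of the 12 member mRNA-TSSCs, 2 were apart between *rrp6∆* and WT, beside 6.98% of all mRNA-TSSCs. One was the distal *HXT1* cluster and the other the *HXT5* position 158 nt upstream, with 0 reads in *rrp6∆*, against 2 in WT. Between *upf1∆rrp6∆* and WT 1 was apart, beside 20.7%, and between *upf1∆rrp6∆* and *rrp6∆* 2 were, beside 14.5%. These were again the distal *HXT1* cluster and, in the last comparison, the same *HXT5* position, with 2 reads in *upf1∆rrp6∆*, against 0 in *rrp6∆*. None of the 9 mRNA-TSSCs with a mean of at least 100 was apart in any of the 8 comparisons. Of all mRNA-TSSCs at that level, 8.78% were apart between *upf1∆* and WT, 4.08% between *rrp6∆* and WT, 15.1% between *upf1∆rrp6∆* and WT, and 9.87% in *upf1∆rrp6∆* over *rrp6∆*. In the *SET2* experiment these shares were 8.9% in *upf1∆*, 2.54% in *set2∆* and 11.2% in *upf1∆set2∆* over WT, and 8.07% in *upf1∆set2∆* over *set2∆*.

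In *set2∆* the genes divided differently. *HXK1* held 15595 reads in *set2∆*, against 10219 in WT (log2 ratio 0.61), *HXT7* 4165 in *set2∆*, against 2856 in WT, and *HXT6* 1666 in *set2∆*, against 1088 in WT. The sum of *HXT6* and *HXT7* was 5831 in *set2∆*, against 3944 in WT (log2 ratio 0.56). Of 2948 mRNA-TSSCs at this level, 7.53% had a higher ratio than *HXK1*. In contrast *HXT2* held 1416 in *set2∆*, against 1773 in WT (log2 ratio -0.32), and 6.17% had a lower ratio. *HXT3* had 784 in *set2∆*, against 889 in WT, proximal *HXT1* 103 in *set2∆*, against 115 in WT, and *GLK1* 7637 in *set2∆*, against 8440 in WT, log2 ratios of -0.18, -0.16 and -0.14. *HXK2* and *HXT4* stayed within 0.14 of WT. The 9 genes had a median log2 ratio of 0.12, beside 0.13 for all mRNA-TSSCs at this level.

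In *upf1∆set2∆* the values of *HXK1*, *HXT6* and *HXT7* were again above those in WT. *HXK1* held 15958 in *upf1∆set2∆*, against 10219 in WT (log2 ratio 0.64), and the sum of *HXT6* and *HXT7* was 5443 in *upf1∆set2∆*, against 3944 in WT (log2 ratio 0.46). *HXK2* held 3711 in *upf1∆set2∆*, against 4221 in WT, the lowest of its 4 values in that experiment. *HXT1* and *HXT4* again differed: proximal *HXT1* had 161 reads in *upf1∆set2∆*, against 103 in *set2∆* (log2 ratio 0.64), and *HXT4* had 357 in *upf1∆set2∆*, against 412 in *set2∆* (log2 ratio -0.21). Both ratios had the sign of the *upf1∆* effect in cells with Set2, but that of *HXT4* was not far from the repeat SD of 0.18. That SD was taken from *upf1∆* over WT. Against WT, *HXT4* was at -0.09.

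By the 2-fold limit, 0 of 11 member mRNA-TSSCs were apart between *set2∆* and WT, beside 4.91% of all mRNA-TSSCs. Between *upf1∆set2∆* and WT 1 was, beside 17.2%, and between *upf1∆set2∆* and *set2∆* 1 was, beside 13.5%, both times the distal *HXT1* cluster with its 5 reads in *upf1∆set2∆*.

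**Figure D5:**
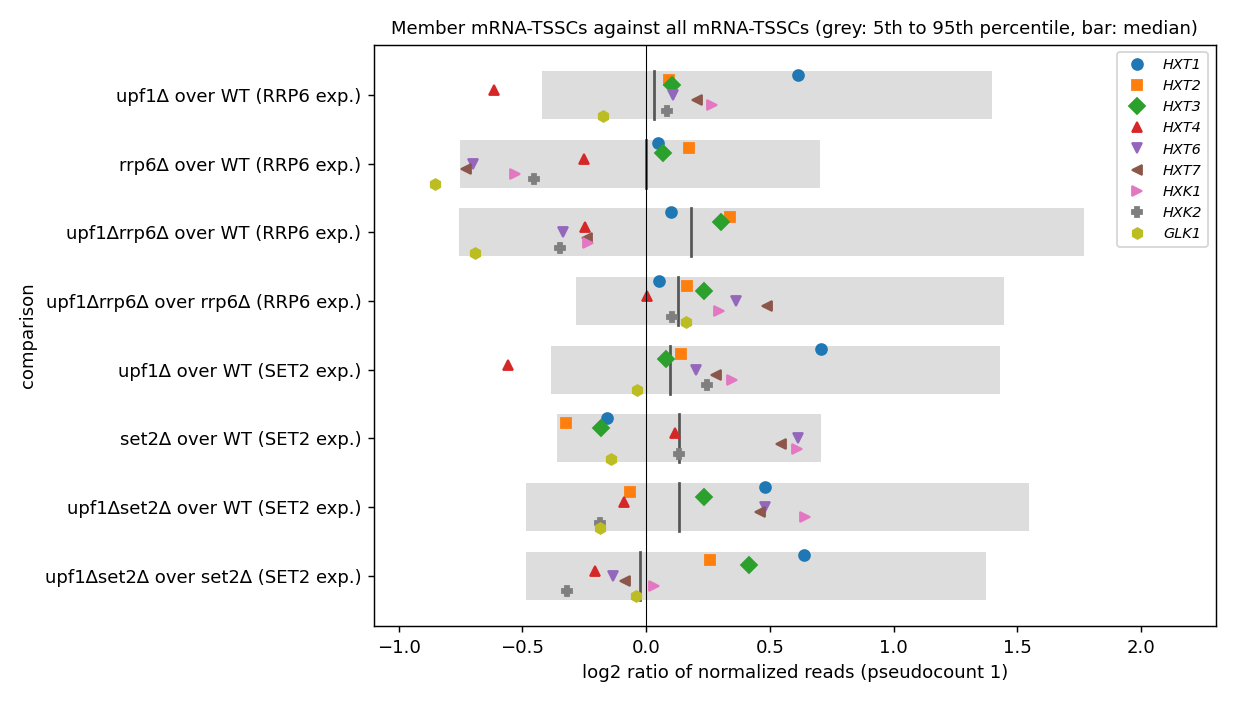
Log2 ratios of the 9 member mRNA-TSSCs with a mean of at least 100 (symbols) in the 8 comparisons (rows). The grey bars run from the 5th to the 95th percentile of all mRNA-TSSCs with such a mean and the dark lines mark their median; the points outside a bar are *HXT4* in *upf1∆* over WT (-0.61 and -0.56) and *GLK1* in *rrp6∆* over WT (-0.85).

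Over the 8 genotype values, centred within each experiment, *HXT6*, *HXT7* and *HXK1* followed the same course, with Pearson correlations of 0.97 between *HXK1* and each of the transporters, and of 0.98 between *HXT6* and *HXT7*, which share most of their reads' sequence. *HXK2* and *GLK1* had 0.82, and *HXT1* and *HXT4* -0.88. These were the highest correlations and the lowest one among pairs of members. *HXK1* had -0.49 with *HXT2* and -0.02 with *HXT3*. As the reads of *HXT6* and *HXT7* cannot be told apart, the 2 values of 0.97 are not separate observations. How often other gene pairs reach such values over 8 pooled values was not counted. The correlations are therefore given as a description and not as a trait of these genes. The letters of 3 factor motifs were searched on both strands in the 500 nt before the coding region. The Rgt1 motif CGGANNA occurred before 7 of the 10 genes and before 42.3% of 5228 genes, with 5 matches before *HXT3* and 4 before *HXT1* but none before *HXT7*, *HXK1* or *GLK1*. CCCCT, bound by the stress factors Msn2 and Msn4, occurred before 5 of the 10 genes and before 34.6% of all, with 3 matches each before *HXK1* and *GLK1*, 2 before *HXT7* and *HXT5*, 1 before *HXT1* and none before *HXT6*. CCCCGC, a core of the Mig1 motif, occurred before *HXT2*, *HXT4* and *GLK1* and before 5.68% of all genes. The last 2 motifs can overlap at their ends. The *HXT1* match nearest to the ATG for Rgt1 lay inside the distal cluster and is in capitals in the window chrVIII:292838-292867.
HXT1 Rgt1 motif: tttgatggcttTTATCCGacaagccaggaa

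The internal TSSC of *GLK1* was the only TSSC within a coding region with more than 20 reads. It held 470 reads in *upf1∆* and 305 in *rrp6∆*, with 490 in *upf1∆rrp6∆*, against 253 in WT, and so was higher in both genotypes without Upf1, by 1.86 and 1.94 times the WT value (log2 ratios 0.89 and 0.95). Set against *rrp6∆*, *upf1∆rrp6∆* had 1.61 times its value. The *GLK1* mRNA-TSSC was lower than in WT in the same genotypes, with 8393 in *upf1∆* and 5862 in *upf1∆rrp6∆*, against 9469 in WT. The table of the *SET2* experiment lists no internal TSSC for *GLK1*, so the difference could not be repeated. That experiment also measured *upf1∆* and WT, in which this cluster held 470 and 253 reads here. TSSCs were filtered by TAP dependence and start base, and why this one is missing there was not tested. Its reading as a start of capped RNAs therefore rests on the *RRP6* experiment alone.

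The other internal and antisense TSSCs were close to 0. *HXT4* had 2 internal TSSCs in the *RRP6* experiment. That at chrVIII:286992-287033, after the stop codon, held 2, 2 and 6 reads in *upf1∆*, *rrp6∆* and *upf1∆rrp6∆*, against 0 in WT. That at chrVIII:287213-287237 held 15, 4 and 6 reads in the same mutants, against 7 in WT. *HXT4* had single positions in the *SET2* experiment with 1, 0 and 0 reads and with 0, 2 and 1 reads in *upf1∆*, *set2∆* and *upf1∆set2∆*, against 2 and 0 in WT. The antisense TSSCs of *GLK1* held at most 3 reads in any genotype. Counted with the internal *GLK1* TSSC, the members had 4 internal and antisense TSSCs in the *RRP6* experiment. By the 2-fold limit 1 of these 4 was higher in *upf1∆* than in WT, beside 40.3% of all internal and antisense TSSCs. The count was 1 of 4 in *rrp6∆* over WT as well (23.8% of all), in *upf1∆rrp6∆* over WT (59.9%) and in *upf1∆rrp6∆* over *rrp6∆* (45.5%), always the *HXT4* TSSC after the stop codon. In the *SET2* experiment 1 of 3 was higher in *upf1∆* than in WT (22.6% of all) and 1 of 3 in *set2∆* (48.6%). None of the 3 was higher in *upf1∆set2∆* over WT (79.5%) or over *set2∆* (45.8%). All of these calls rest on 6 reads or fewer.

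The regulators of the pathway were read from lists of 10 other transporter genes, 8 genes of glucose sensing, 7 of glucose repression and *EMI2*, the kinase paralog. Of the other transporters only 1 had an mRNA-TSSC. In the *RRP6* experiment 14 of the listed mRNA-TSSCs had a mean of at least 20, and 1 of these was apart in *upf1∆* over WT (beside 11.6% of all mRNA-TSSCs at that level), 2 in *rrp6∆* over WT (5.6%), 2 in *upf1∆rrp6∆* over WT (18.6%) and 1 in *upf1∆rrp6∆* over *rrp6∆* (12.6%), all higher in the mutant named first. The *SET2* experiment had 1 of 14 apart in *upf1∆* (11.7%), *set2∆* (3.13%) and *upf1∆set2∆* (14.2%) over WT and 1 of 15 in *upf1∆set2∆* over *set2∆* (10.7%), again higher. The internal and antisense TSSCs of these genes, some of which belong to near-identical transporter copies, were more than 2-fold higher in 12 of 17 for *upf1∆* over WT (beside 40.3% of all), 3 for *rrp6∆* over WT (23.8%), 15 for *upf1∆rrp6∆* over WT (59.9%) and 16 for *upf1∆rrp6∆* over *rrp6∆* (45.5%). For the *SET2* experiment these were 10 of 22 in *upf1∆* (22.6%), 8 in *set2∆* (48.6%) and 19 in *upf1∆set2∆* (79.5%) over WT, and 13 in *upf1∆set2∆* over *set2∆* (45.8%). *MIG3*, a repressor related to *MIG1*, held 447 reads in *upf1∆* and 796 in *rrp6∆*, with 1784 in *upf1∆rrp6∆*, against 117 in WT. *MIG2*, which acts with *MIG1* in glucose repression, held 221 in *rrp6∆* and 245 in *upf1∆rrp6∆*, against 87 in WT. *MIG3* also held 423 in *upf1∆* and 318 in *upf1∆set2∆*, against 90 in WT, in the *SET2* experiment. *MTH1*, which helps Rgt1 repress transporter genes, held 549 in *set2∆*, against 268 in WT. Whether these values bear on those of the 10 genes was not tested.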

How the data were processed

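TSS sequencing libraries (24, in 2 experiments) were analysed; 8 TAP control libraries and 8 RNAseq libraries were not used here, as the tables give none of their values. According to the submitters' processing notes reads were aligned with Bowtie2 to R64. Per the methods of the study, duplicates were removed by a random tag, 5′-ends were grouped into TSSCs, filtered by TAP dependence and start base, assigned to classes, and normalized to reads starting just upstream of ORF ATGs. The score values deposited by the authors are these normalized reads, 1 whole number per genotype; that this is the mean of 3 libraries was inferred. Their own fold changes and p-values, also in the tables, were not used, and 0 columns of per-sample values were left out. The planned test needs reads per library and was not run.

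Ratios were taken as log2 of value plus 1, with 2-fold as the limit, over all TSSCs of a class, in Python 3.11.15 with pandas 2.3.3, numpy 2.4.6 and scipy 1.17.1. Values of 100 or more defined the background range. TSSCs of the 2 experiments were matched where they shared a strand and 1 nt or more. The depth of single libraries is not in these values, so the repeat of *upf1∆* over WT gave the precision; it covers no spread between libraries. The counting was tested on simulated data. Reads of 38 and 88 nt (reads less their tag) were searched on both strands of R64. The named genes are the 10 members with all their TSSCs, the listed pathway genes with an mRNA-TSSC of mean 20 or more that was over 2-fold apart, the deleted genes, and, for members over 2-fold apart in their summed value, the 2 genes most like them over 8 values. The members and lists were chosen with earlier results of these data known. Alternatives were pseudocounts of 0.1 and 5, a mean of at least 10, ratios relative to the median of all mRNA-TSSCs, the other experiment, and the longer read.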

Additional observations from a re-analysis of the deposited data

How the results depend on the processing

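No paired analysis was possible because the tables hold 1 pooled value per genotype and no value per library; for the same reason leaving out single replicates could not be run. No listed result reversed. Ratios relative to the median log2 ratio of all mRNA-TSSCs (0.04 to 0.28 in the 8 comparisons) changed none of the 16 counts of 2-fold calls. Of the 9 members with a mean of at least 100, 9 were above 0 in *upf1∆rrp6∆* over *rrp6∆*, 6 above the median of mRNA-TSSCs at that level and 4 above the median of all; in *set2∆* over WT these numbers were 5, 3 and 5, and in the other 6 comparisons they differed by at most 1. The counts of 2-fold calls rest on values near 0 and moved with the pseudocount and the filter, because such TSSCs then drop out or enter. With means of at least 10, the mRNA-TSSC counts became 0 in *upf1∆* over WT (both experiments), *upf1∆set2∆* over WT and *upf1∆set2∆* over *set2∆*, and 1 in *rrp6∆* over WT and *upf1∆rrp6∆* over *rrp6∆*; the internal and antisense counts became 0 in all 6 comparisons that had 1. With a pseudocount of 5, the mRNA-TSSC counts became 0 in *upf1∆* over WT of the *SET2* experiment, *upf1∆set2∆* over WT and *upf1∆set2∆* over *set2∆*, and 1 in *rrp6∆* over WT and *upf1∆rrp6∆* over *rrp6∆*; the internal and antisense counts became 0 in *upf1∆* over WT (both experiments), *rrp6∆* over WT, *upf1∆rrp6∆* over *rrp6∆* and *set2∆* over WT. With a pseudocount of 0.1, the mRNA-TSSC count became 1 in *set2∆* over WT, and the internal and antisense counts became 2 in *upf1∆*, *upf1∆rrp6∆* over WT and *upf1∆rrp6∆* over *rrp6∆*, and 1 in *upf1∆set2∆* over WT. Between the experiments, the *upf1∆* over WT log2 ratio was 0.24 in place of 0.09 for *HXK2* and -0.036 in place of -0.17 for *GLK1*, the cause of which was not tested. The share of TSSC positions with a second match was equal for reads of 38 and 88 nt.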

Other observations

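Transcripts that are not annotated to the 10 genes start close to several of them, in the 500 nt before or the 300 nt after their coding regions. Most of those described here were picked because they changed between genotypes. The share of all such TSSCs that change was not counted, so the changes cannot be read as a trait of these genes. The paper reports stable unannotated transcripts as more sensitive to NMD than to Rrp6, and cryptic unstable transcripts as strongly stabilized without Rrp6. Upstream of *GLK1*, in the sense direction, a TSSC of the stable unannotated transcript SUT026 (chrIII:50285-50445) held 161 reads in *upf1∆* and 33 in *rrp6∆*, with 97 in *upf1∆rrp6∆*, against 43 in WT. In the *SET2* experiment (chrIII:50349-50434) it held 151 in *upf1∆*, 57 in *set2∆* and 158 in *upf1∆set2∆*, against 37 in WT. It was thus higher than WT in all 4 genotypes without Upf1. Upstream of *HXT4*, also in the sense direction, a TSSC of SUT584 (chrVIII:289116-289177) held 41 reads in *upf1∆* and 14 in *rrp6∆*, with 50 in *upf1∆rrp6∆*, against 18 in WT. In the *SET2* experiment it held 30 in *upf1∆*, 12 in *set2∆* and 53 in *upf1∆set2∆*, against 6 in WT. It too was higher than WT in all 4 genotypes without Upf1. Whether it is related to the *HXT4* values was not tested.

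At the 3′-end of *HXT4* a TSSC of the cryptic unstable transcript CUT_GIM_1278, antisense to the gene (chrVIII:286929-287063), held 7 reads in *upf1∆* and 56 in *rrp6∆*, with 125 in *upf1∆rrp6∆*, against 2 in WT. A TSSC of the Xrn1-sensitive transcript XUT_8F-130, also antisense there (chrVIII:286765-286831), changed little, with 21, 13 and 15 reads in the same mutants, against 16 in WT. Antisense to *HXT7* and after its 3′-end, CUT083 (chrIV:1153846-1153919) held 3, 46 and 44 reads in the same mutants, against 4 in WT. Antisense to *HXT2*, SUT727 (chrXIII:289727-289816) held 6 reads in *upf1∆*, 4 in *set2∆* and 47 in *upf1∆set2∆*, against 0 in WT.

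*HXT5* was the only gene whose summed value was more than 2-fold apart within an experiment, between 1 and 4 reads. By the likeness rule the genes closest to it over the 8 values were *YME2* (Pearson correlation 0.95) and *COQ1* (0.92) of 4799 compared, which at these values of *HXT5* rests on differences of 1 to 3 reads. The WT level of *HXT1* also differed between experiments: after scaling to the median of all mRNA-TSSCs, its proximal cluster was higher in the *RRP6* experiment by 0.50 on the log2 scale, where the SD over TSSCs of mean 100 to 1000 was 0.40.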
